A study of Mus musculus with 18 samples.

Results

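The genes described here are those named as CD antigens, the cell surface molecules that antibodies are used to tell apart on leukocytes and other cells, in the kidney cortex of mice challenged with anti-GBM antibodies. They were chosen by name: every gene symbol made of Cd, a number and at most a letter and a digit was taken, without Cd74 and Cd59a. This gave 78 of the 34509 symbols in the table of B6 and NZW, read by 115 of its 46643 probes. The probes of BALB/c, DBA1, and 129/svj lie in another table with no symbols, and 67 of the 115 probes, for 41 of the 78 genes, share a search key with 47 of its 46147 probes. Cd8b and Cd8b1 share 1 of these 47 probes, so the matched genes count as 40 there. The other 37 genes were read in B6 and NZW only.

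Total RNA of 15 mice, 3 of each strain and 2 months old, was measured on 18 Illumina mouse BeadChips. B6 and BALB/c are the strains called resistant to anti-GBM antibodies, and NZW, DBA1, and 129/svj those called sensitive. All mice had been challenged and none is an unchallenged control, so strain differences that were there before the challenge and those that followed it are measured together. Probe sequences were not read here, so whether a strain variant under a probe changes its signal was not tested. Mouse 1 was hybridized again in BALB/c, DBA1, and 129/svj, and its arrays were averaged. Each array gives 1 signal per probe with a detection p-value against its negative controls. Median signals lay between 81.1 and 89.8 on the arrays of B6 and NZW and between 118 and 152 on the others, and 30.5% to 36.4% of probes reached a detection p of at most 0.05. Strains were compared within each table. Levels are given on the log2 scale after background correction and quantile normalization within a table, and n is the number of mice.

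CD antigens do many different jobs. T cells read antigen through the T cell receptor with the Cd3 chains, helped by Cd4 or Cd8, and B cells signal through the Cd79 chains of their own receptor. Monocytes and macrophages carry the endotoxin receptor Cd14, the endosomal protein Cd68, and the scavenger receptor Cd163. Tetraspanins such as Cd9, Cd63, Cd81, Cd82, and Cd151 organize other membrane proteins and are made by epithelial cells as well as by leukocytes. In immune-mediated nephritis the leukocyte markers are used to follow cells entering the tissue. In RNA of whole cortex, fewer cells of a type and less RNA per cell cannot be told apart.

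Of the 78 genes, 37 were detected, that is, had at least 1 probe whose detection p was at most 0.05 in 3 or more of the 6 mice of B6 and NZW. These were 45 of the 115 probes (39.1%), beside 35.9% of all probes of the table. A probe was detected in all 6 mice for 32 genes, and 31 genes had no probe detected in any mouse. The 58 probes detected in no mouse had mean levels of 4.52 to 5.05. Among the 47 matched probes of BALB/c, DBA1, and 129/svj, 18 were detected in at least 3 of the 9 mice (38.3%, beside 34.3% of all probes of that table), for 16 genes, and 27 were detected in no mouse. Of the matched genes, 16 were detected in both tables, 7 in B6 and NZW only, and 17 in neither.

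**Figure D1:**
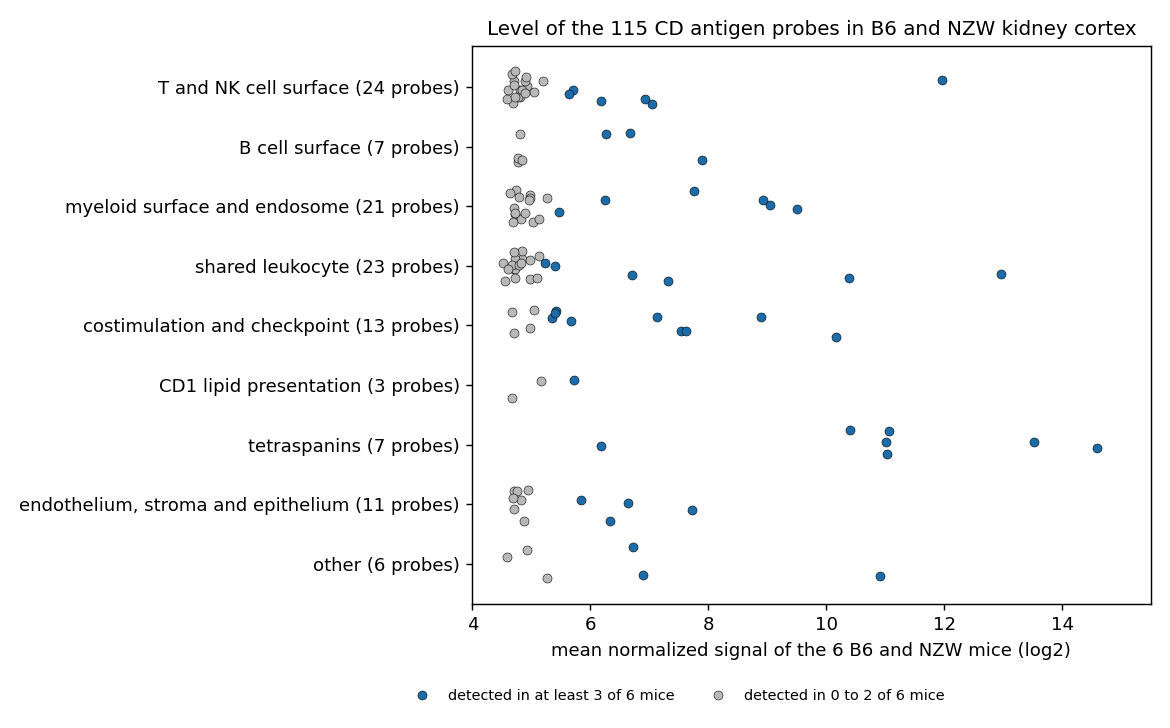
Each point is 1 of the 115 CD antigen probes, placed by its mean normalized signal over the 6 B6 and NZW mice (log2, x axis) within its group of function (y axis, with jitter), blue where it was detected in at least 3 mice. The 70 gray probes lie near the background, and all 7 probes of the tetraspanin group are detected. Cd37 and Cd53, also tetraspanins, are placed in other groups.

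The markers that define the leukocyte lineages were detected for some types and not for others. Of 17 T and NK cell genes, 11 had no probe that passed, among them Cd4 (both probes) and Cd8a, neither of which was detected in any mouse of either table. Cd3d, Cd3e, and Cd3g, chains of the T cell receptor complex, were detected in all 6 mice of B6 and NZW, Cd3e and Cd3g close to the background. Cd247, another chain of this complex, was detected by neither of its probes in any of these mice. Cd3d was 7.11, 7.12, and 7.10 in B6 and 6.75, 7.05, and 7.13 in NZW, Cd3e was 5.67 ± 0.22 and 5.75 ± 0.27 (SD, n = 3 each), and Cd3g was 5.71 ± 0.49 and 5.58 ± 0.23 (SD, n = 3 each). In the table of BALB/c, Cd3d was detected in 4 of 9 mice and Cd3e in none. Among the B cell genes, Cd22 and Cd24a had no probe past the filter and were detected in no mouse. Cd79b, a signaling chain of the B cell receptor, was detected by 1 of its 2 probes, at 6.57 ± 0.19 in B6 and 6.78 ± 0.33 in NZW (SD, n = 3 each). Cd79a was not analysed here. Of 17 myeloid genes, 13 had no probe past the filter, including the scavenger receptor Cd163, detected in no mouse, while Cd14 and both probes of Cd68 were detected in all 6 mice. The name given to these genes as antigens of infiltrating leukocytes therefore holds for only some of those that were measurable, and they are called CD antigens here.

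The 10 genes with the highest mean signal in B6 and NZW were Cd63 (14.59), Cd81 (13.52), Cd164 (12.97), Cd8b (11.97), Cd9 (11.06), Cd151 (11.03), Cd82 (11.01), Cd99l2 (10.92), Cd47 (10.38), and Cd200 (10.16). A signal also depends on the probe, so no order between genes is read from it. The tetraspanins Cd63, which marks late endosomes and exosomes, Cd81, Cd9, Cd151, and Cd82 are among them, with the sialomucin Cd164, the integrin-associated protein Cd47, which restrains phagocytosis, and Cd200, which restrains myeloid cells through its receptor. Cd8b is named for the beta chain of the T cell coreceptor, but its probe ILMN_1257694, bright in every mouse, shares its search key with the 2 probes of Cd8b1, of which ILMN_2664929 was detected in no mouse and ILMN_2741169 had a mean level of 6.93. The probe with this key in the table of BALB/c was bright as well, at 10.79 ± 0.34 in BALB/c, 10.71 ± 0.58 in DBA1, and 10.66 ± 0.25 in 129/svj (SD, n = 3 each). Since Cd8a and Cd4 were not detected, this signal is not read as a T cell level.

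Between B6 and NZW, 12 of the 45 tested probes differed (26.7%), called in limma where the p adjusted by Benjamini-Hochberg over all 16766 tested probes was under 0.05. Of all tested probes 18.8% differed. Of the 12 probes, for 10 genes, 10 were higher in B6, where 9.24% of all tested probes were called in that direction, and 2 were lower, where 9.6% were. The median difference, B6 minus NZW, was 0.13 over the 45 probes and -0.04 over all tested probes. With 75th percentile scaling, the median over all tested probes moved to -0.13 and the share of called probes that were higher in B6 fell from 49% to 37.3%, and of the 12 CD antigen probes called then, 9 were higher and 3 lower. Cd1d1 and Cd52 passed the detection filter through the 3 B6 mice alone. With detection required in every mouse, 10 of 37 probes were called, 8 higher and 2 lower.

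**Figure D2:**
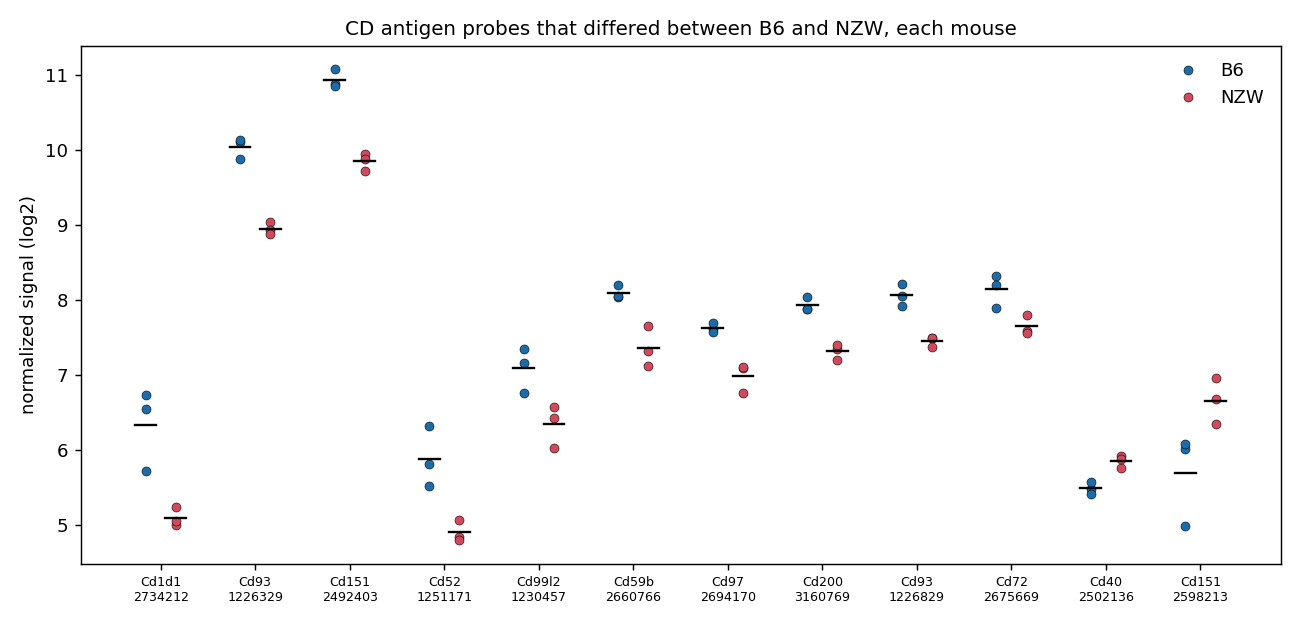
Normalized signal (log2, y axis) of the 12 probes that differed between B6 and NZW, with gene and probe number on the x axis, a point for each of 3 mice per strain and a bar at the mean. The probes were picked by their adjusted p, so a gap between the strains is not a further result. The brighter Cd93 probe and the Cd151 probe ILMN_2492403 are about 1 apart, at 1.09 each. For Cd1d1 and Cd52 the NZW points lie below detection.

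**Figure D3:**
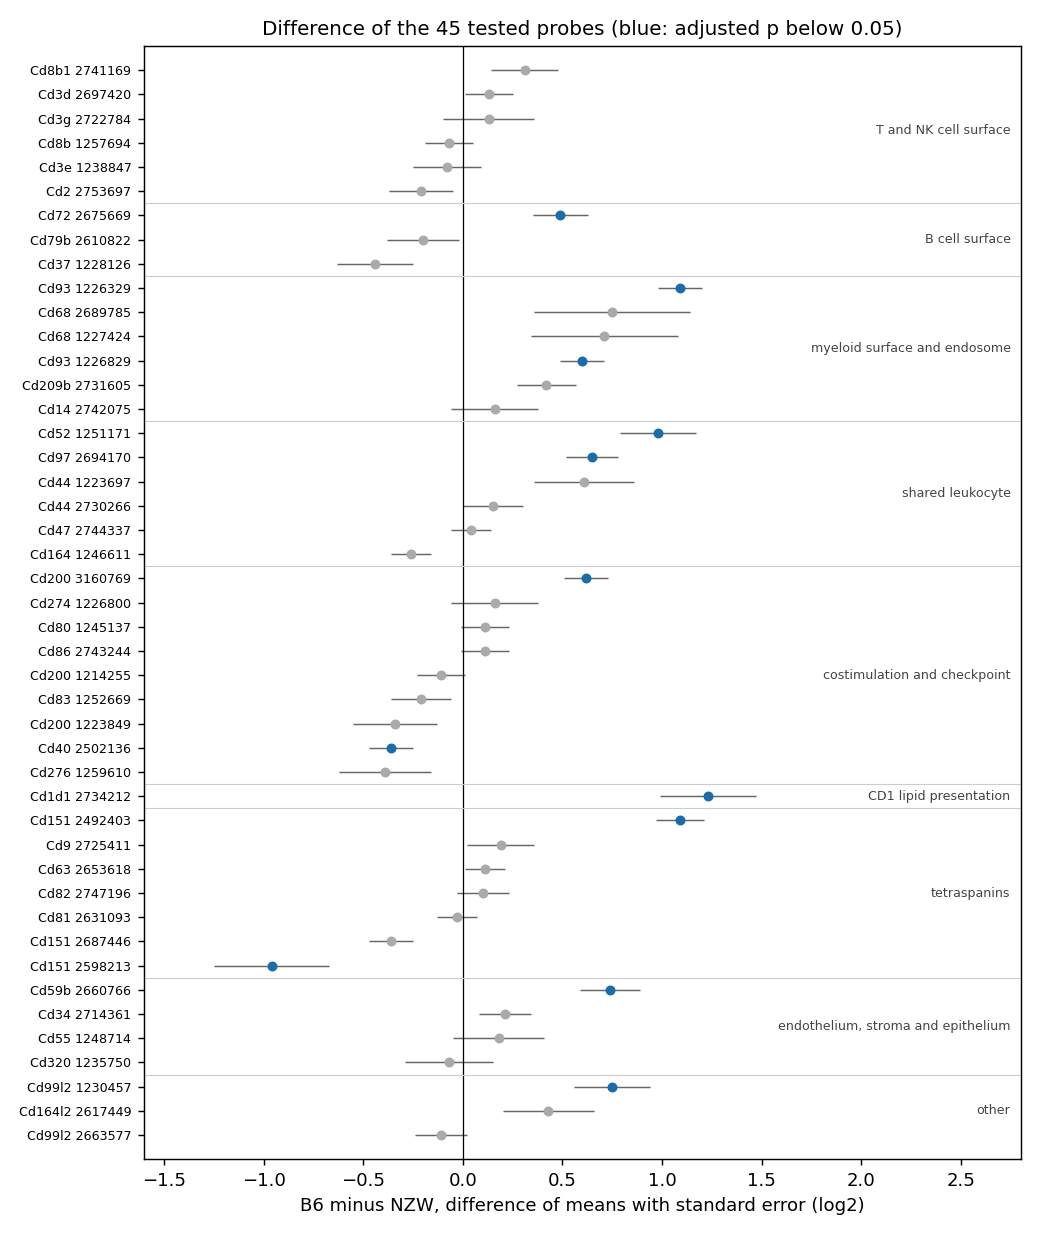
B6 minus NZW difference of means with its standard error (log2, x axis) for all 45 tested probes, grouped by function and blue where the adjusted p was below 0.05. The 10 blue points right of 0 come from several groups, and the T and NK cell group has none. Cd1d1 and Cd52 were fitted against NZW levels below detection, so their positions are not measured sizes.

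Among myeloid genes the largest difference was in Cd93, a C-type lectin-like receptor that is carried by endothelial cells as well as by monocytes. Its probe ILMN_1226329 was 10.11, 10.14, and 9.89 in B6 and 9.04, 8.94, and 8.89 in NZW. Every B6 mouse was above every NZW mouse, by 1.09 between the means (SE 0.11, adjusted p = 2.5e-04), or 2.12-fold. The other probe, ILMN_1226829, was 8.06, 8.22, and 7.93 in B6 and 7.50, 7.50, and 7.38 in NZW, a difference of 0.60 (SE 0.11, adjusted p = 0.0071) in the same direction. The endothelial genes outside the CD names (Cdh5, Emcn, Eng, Flt1, Kdr, Pecam1, and Tek) had 1 of 9 tested probes called, beside 18.8% of all tested probes. It was Eng, at 0.35 (adjusted p = 0.049). The mean of the 9 was 8.95 to 9.05 in B6 and 8.92 to 9.01 in NZW. The part of endothelial content in the Cd93 difference was not tested.

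Cd68 and Cd14, the markers of macrophages and monocytes in this group, did not pass the test. Cd68 probe ILMN_1227424 was 8.85, 10.42, and 8.91 in B6 and 8.69, 8.58, and 8.77 in NZW, and probe ILMN_2689785 was 5.98, 7.64, and 6.26 in B6 and 5.63, 5.76, and 6.23 in NZW. Mouse 2 of B6 was high by both probes, and the other 2 B6 mice were close to NZW. The differences were 0.71 (SE 0.37) and 0.75 (SE 0.39), each with an adjusted p of 0.22, and 0.20 and 0.24 without that mouse (adjusted p = 0.41 and 0.51). Cd14 was 9.29, 9.31, and 8.43 in B6 and 8.89, 8.76, and 8.92 in NZW, so the strains overlapped (difference 0.16, SE 0.22, adjusted p = 0.68), and the difference was 0.45 without mouse 3 of B6, the lowest (SE 0.12, adjusted p = 0.051). Cd209b, a C-type lectin of macrophages, differed by 0.42 (SE 0.15, adjusted p = 0.096).

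Macrophage genes outside the CD names were read beside these. Of 14, 12 had a tested probe and Itgam and Lyz were below detection in every mouse. Of their 13 tested probes, 2 were higher in B6, C1qb at 1.02 (adjusted p = 8.3e-04) and Fcer1g, and none was lower. Of all tested probes, 9.24% were called higher in B6 and 9.6% lower, so nothing is read from this count. Fcer1g was below detection in all 3 NZW mice and at least 29.2-fold lower there. The matched probes of Fcer1g and Lyzs were detected in no mouse of the table of BALB/c, where C1qa, C1qc, and Csf1r were detected. The Fcer1g signal was thus seen in B6 alone of all strains, and whether it follows macrophage content was not tested. The median of the 13 was 0.43, against -0.04 over all tested probes. Fcer1g passed the filter through B6 alone, so no adjusted p is given for its difference. Without Fcer1g the median of the other 12 probes was 0.42, with 1 called. The mean of these 12 was 7.62, 8.05, and 7.56 in B6 and 7.49, 7.35, and 7.44 in NZW. It was highest in mouse 2 of B6, the mouse with the high Cd68, and the other B6 mice lay closer to NZW than to it. Neutrophil genes (6 of 7 measured genes tested) had no probe called, and their mean spread from 7.23 to 9.51 in B6 and from 8.0 to 8.54 in NZW. The part of these cells in the differences of the CD antigens was not tested.

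In the group shared by most leukocytes, Cd52 and Cd97 were higher in B6. Cd52, a short glycoprotein of lymphocytes and monocytes, passed the filter through the B6 mice alone, so no adjusted p is given for this difference. It was 5.52, 6.32, and 5.82 in B6 and below detection in all 3 NZW mice, at least 1.48-fold lower there. For this bound, each NZW array was given the dimmest signal that any detected probe had on it, or the probe's own where that is higher. Cd97, an adhesion receptor now named Adgre5 in RefSeq, was 7.62, 7.58, and 7.70 in B6 and 7.10, 7.11, and 6.76 in NZW. These values, of probe ILMN_2694170, did not overlap and differed by 0.65 (SE 0.13, adjusted p = 0.0081). The call was lost by the methods' t-test in limma's place (0.65, Benjamini-Hochberg adjusted p = 0.052). The other Cd97 probe, ILMN_2725350, was detected in 1 NZW mouse only, with means of 5.05 in B6 and 5.12 in NZW, and was not tested. Cd44, the hyaluronan receptor, was detected in all 6 mice by 1 of its 9 probes, ILMN_1223697, at 6.80, 7.62, and 6.63 in B6 and 6.15, 6.66, and 6.40 in NZW. Mouse 2 of B6 was again the highest, and the difference of 0.61 (SE 0.25, adjusted p = 0.13) was 0.31 without it (adjusted p = 0.32). Cd164 was lower in every B6 mouse (12.84 ± 0.05 against 13.10 ± 0.04, SD, n = 3 each), but did not pass (difference -0.26, SE 0.10, adjusted p = 0.1). It was called without background correction (-0.26, adjusted p = 0.039), with 75th percentile scaling (-0.46, adjusted p = 0.023), with an intensity trend in eBayes (-0.26, adjusted p = 0.02), and by the methods' t-test in limma's place (-0.26, Benjamini-Hochberg adjusted p = 0.025). Cd47 differed by 0.04 (SE 0.10, adjusted p = 0.82). Leukocyte genes outside the CD names had 4 of 7 measured genes tested, with Ptprc and Itgb2 below detection in every mouse. None of their 6 probes was called, beside 18.8% of all tested probes.

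Of the B cell genes, Cd72, an inhibitory coreceptor, was higher in B6, at 7.90, 8.33, and 8.21 against 7.59, 7.57, and 7.80 in NZW. The strains stood apart by 0.49 (SE 0.14, adjusted p = 0.041). The call was lost without B6 mouse 2 (0.40, adjusted p = 0.15), B6 mouse 3 (0.46, adjusted p = 0.12), NZW mouse 1 (0.46, adjusted p = 0.1), or NZW mouse 2 (0.45, adjusted p = 0.094), and with 75th percentile scaling (0.42, adjusted p = 0.062). Cd37, a leukocyte tetraspanin, was 6.05 ± 0.26 in B6 and 6.49 ± 0.34 in NZW (SD, n = 3 each; difference -0.44, adjusted p = 0.15), and it was called without NZW mouse 1 (-0.64, adjusted p = 0.045). Cd79b differed by -0.20 (SE 0.18, adjusted p = 0.49). Other B and plasma cell genes were below detection in every mouse (Blk, Cr2, Fcrla, Igj, Ms4a1, and Pou2af1) except Blnk, which was not called, and the heavy chain Igh-6, which was higher in B6 by 1.64 and 1.76 in its 2 probes (adjusted p = 0.025 and 0.014). Their 4 tested probes had a mean of 8.16 to 9.15 in B6 and 7.72 to 7.89 in NZW. The part of B cells in the Cd72 difference was not tested.

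Cd1d1, which presents lipids to NKT cells, was 6.55, 6.74, and 5.73 in B6 and below detection in all 3 NZW mice, at least 2.02-fold lower there. It passed the filter through the B6 mice alone, so no adjusted p is given for this difference. Cd1d2, the neighboring gene of the family, was detected in 1 B6 mouse by 1 of its 2 probes and in no NZW mouse.

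Of the genes of costimulation and its checkpoints, 7 of 8 were detected. Of their 9 tested probes, 2 were called, in opposite directions, beside 18.8% of all tested probes. Cd200 was higher in B6 by probe ILMN_3160769, at 7.88, 8.05, and 7.89 against 7.21, 7.35, and 7.41 (difference 0.62, SE 0.11, adjusted p = 0.005). Its other probes did not show this. ILMN_1214255 was 10.10 ± 0.10 and 10.21 ± 0.14 (SD, n = 3 each; difference -0.11, adjusted p = 0.55), and ILMN_1223849, detected in 3 mice, differed by -0.34 (adjusted p = 0.3). Cd40, the receptor through which T cells help B cells and activate macrophages, was lower in B6, at 5.48, 5.42, and 5.58 against 5.76, 5.92, and 5.88 (difference -0.36, SE 0.11, adjusted p = 0.045). These values lie close to the background. The call did not hold without any background correction (-0.18, adjusted p = 0.14), with a larger offset (-0.22, adjusted p = 0.1), or without any 1 of the mice other than NZW mouse 1: the difference was -0.35 without B6 mouse 1 (adjusted p = 0.13), -0.33 without B6 mouse 2 (0.17), -0.41 without B6 mouse 3 (0.072), -0.33 without NZW mouse 2 (0.097), and -0.35 without NZW mouse 3 (0.097). The T cell costimulators Cd80 (0.11, SE 0.12, adjusted p = 0.57) and Cd86 (0.11, SE 0.12, adjusted p = 0.59), the checkpoint ligand Cd274, also called PD-L1 (0.16, SE 0.22, adjusted p = 0.66), Cd83 (-0.21, SE 0.15, adjusted p = 0.38), and Cd276 (-0.39, SE 0.23, adjusted p = 0.3) were not called.

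All 5 genes put in the tetraspanin group were detected. Cd37 and Cd53, tetraspanins of leukocytes, were put in other groups, and Cd53 was detected in no mouse of either table. Within the group, the probes of Cd151, a partner of laminin-binding integrins, disagreed. Probe ILMN_2492403 was higher in B6, at 10.89, 11.08, and 10.86 against 9.95, 9.73, and 9.89, a difference of 1.09 (SE 0.12, adjusted p = 2.9e-04). Probe ILMN_2598213 was lower in B6, at 6.02, 6.09, and 4.99 against 6.68, 6.35, and 6.96, a difference of -0.96 (SE 0.29, adjusted p = 0.049). Mouse 3 of B6 was below detection for this probe. Its call was lost without B6 mouse 1 (-1.12, adjusted p = 0.056), B6 mouse 3 (-0.61, adjusted p = 0.071), NZW mouse 1 (-0.95, adjusted p = 0.12), or NZW mouse 3 (-0.82, adjusted p = 0.15). The third probe, ILMN_2687446, was also lower in B6, at 10.90, 10.95, and 10.69 against 11.15, 11.22, and 11.26, with a difference of -0.36 (SE 0.11) and an adjusted p of 0.053. It was called under 5 alternatives with adjusted p-values, at 0.013 to 0.047. The 3 probes share 1 search key, so no single direction is given for Cd151. The other genes of this group were close in the 2 strains. Cd63 differed by 0.11 (SE 0.10, adjusted p = 0.48) and Cd81 by -0.03 (SE 0.10, adjusted p = 0.89). Cd9 differed by 0.19 (SE 0.17, adjusted p = 0.5) and Cd82 by 0.10 (SE 0.13, adjusted p = 0.64).

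RefSeq places Cd151 on the plus strand of chromosome 7 with 2 transcription starts, in GRCm38.p6. The 250 bases before each start are shown because the probes of this gene disagree and the gene has more than 1 start. Which transcript each probe reads was not analysed here. Capitals mark the GC box GGGCGG, which was searched on both strands together with the TATA box TATAAA and the ETS core GAGGAA. The GC box occurs in 32.7% of the 32851 RefSeq windows of this length before a start, the TATA box in 12.4%, and the ETS core in 23.3%. The window of the upstream start, chr7:141467112-141467361, holds 2 GC boxes and that of the downstream start, chr7:141468539-141468788, holds none of the 3 motifs.
Cd151 upstream start: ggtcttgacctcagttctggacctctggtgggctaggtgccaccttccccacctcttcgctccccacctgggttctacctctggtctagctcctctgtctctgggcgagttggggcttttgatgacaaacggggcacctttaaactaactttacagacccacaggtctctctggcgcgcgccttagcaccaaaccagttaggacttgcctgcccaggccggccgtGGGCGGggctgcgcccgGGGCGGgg
Cd151 downstream start: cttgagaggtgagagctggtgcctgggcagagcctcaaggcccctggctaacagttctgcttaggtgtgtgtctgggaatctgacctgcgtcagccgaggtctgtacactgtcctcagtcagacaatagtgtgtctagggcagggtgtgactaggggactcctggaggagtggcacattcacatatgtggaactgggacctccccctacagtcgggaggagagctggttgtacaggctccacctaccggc

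Outside these groups, Cd59b, a membrane inhibitor of the terminal complement complex, was higher in B6, at 8.05, 8.20, and 8.06 against 7.66, 7.12, and 7.32. The strains did not overlap and differed by 0.74 (SE 0.15, adjusted p = 0.0094). Cd55, which acts earlier in the complement cascade, differed by 0.18 (SE 0.23, adjusted p = 0.65), or by 0.48 without mouse 1 of B6 (SE 0.14, adjusted p = 0.058), and Cd34, of endothelium and progenitors, by 0.21 (SE 0.13, adjusted p = 0.31). Cd99l2, a Cd99-like adhesion protein, was higher in B6 by probe ILMN_1230457, at 7.17, 7.35, and 6.77 against 6.43, 6.03, and 6.58 (difference 0.75, SE 0.19, adjusted p = 0.026), but not by ILMN_2663577 (-0.11, SE 0.13, adjusted p = 0.63). The call of the first was lost without B6 mouse 1 (0.71, adjusted p = 0.08), B6 mouse 2 (0.62, adjusted p = 0.091), NZW mouse 1 (0.79, adjusted p = 0.057), or NZW mouse 2 (0.59, adjusted p = 0.062). Cd164l2 differed by 0.43 (SE 0.23, adjusted p = 0.25) and was called without NZW mouse 2, the highest of its strain (0.70, adjusted p = 0.021). Cd36, Cd46, Cd109, and Cd248 had no probe past the filter.

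None of the 6 tested T and NK cell probes was called between B6 and NZW, beside 18.8% of all tested probes. Their differences ran from -0.21 (Cd2, SE 0.16, adjusted p = 0.43) to 0.31 (Cd8b1, SE 0.17, adjusted p = 0.24), with Cd3d at 0.13 (SE 0.12, adjusted p = 0.51), Cd3e at -0.08 (SE 0.17, adjusted p = 0.8), and Cd3g at 0.13 (SE 0.23, adjusted p = 0.75). Of the T cell genes outside the CD names, 2 of 8 measured were tested, Lck and Thy1, and neither was called, with means of 6.43 to 7.0 in B6 and 6.78 to 7.09 in NZW. Of 5 NK cell genes, 2 were tested, and Nkg7 was higher in B6 by 0.69 (adjusted p = 0.015).

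In the table of BALB/c, DBA1, and 129/svj, 18 CD antigen probes were tested. Between BALB/c and the mean of the sensitive strains DBA1 and 129/svj, 2 of the 18 (11.1%) were called, Cd82 and Cd14, beside 5.99% of the 15818 probes tested. Between BALB/c and DBA1, 2 were called, Cd14 and Cd93, beside 5.75% of all tested probes. Between BALB/c and 129/svj, 1 was called, Cd82, beside 4.82%, and between DBA1 and 129/svj 2 were called, Cd82 and Cd93, beside 4.48%. These comparisons share mice. The median difference of the 18 probes was -0.08 for BALB/c minus the mean of the others and 0.01 over all tested probes.

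**Figure D4:**
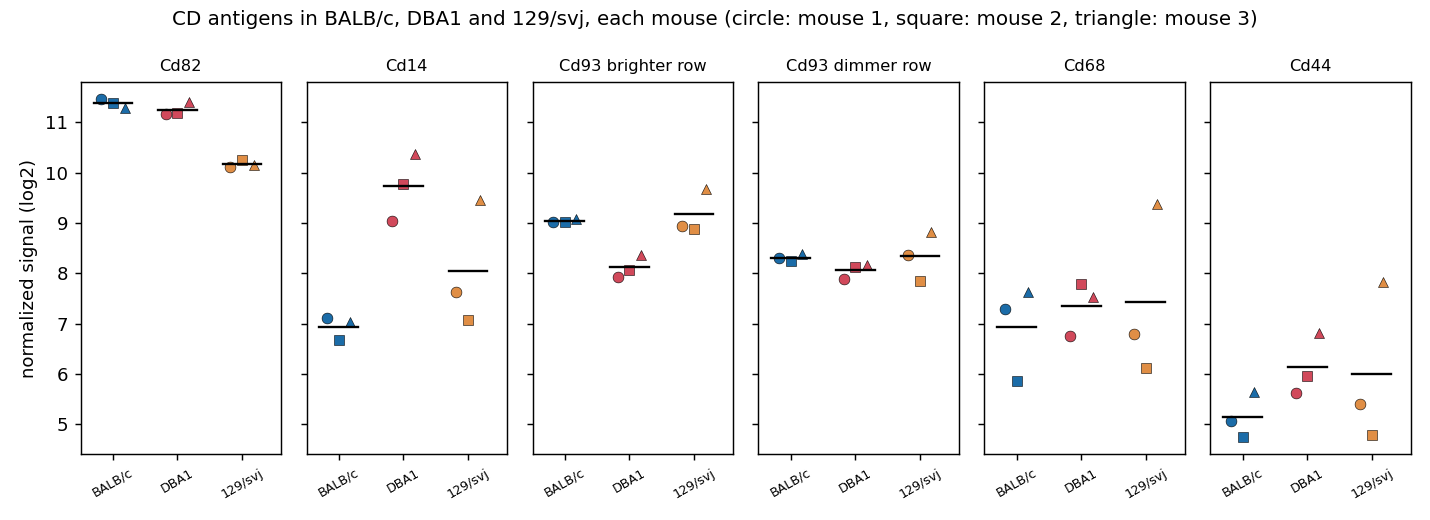
Normalized signal (log2, y axis) of 6 CD antigen probes in the 3 mice each of BALB/c, DBA1, and 129/svj (x axis), with the mouse given by the marker and a bar at the mean. Cd82 is low in all 3 mice of 129/svj, Cd14 is low in all 3 of BALB/c, and mouse 3 of 129/svj is the highest of its strain for Cd14, Cd68, and Cd44.

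Cd82, a tetraspanin known as a suppressor of metastasis, was low in 129/svj. It was 11.46, 11.39, and 11.28 in BALB/c, 11.16, 11.19, and 11.41 in DBA1, and 10.11, 10.26, and 10.15 in 129/svj. BALB/c and DBA1 overlapped, and every mouse of 129/svj lay below both. BALB/c was 1.20 above 129/svj (SE 0.13, adjusted p = 3.6e-04), or 2.30-fold, and DBA1 was 1.08 above it (SE 0.13, adjusted p = 8.0e-04), while BALB/c and DBA1 differed by 0.12 (SE 0.13, adjusted p = 0.7). The difference of 0.66 between BALB/c and the mean of the other strains (SE 0.11, adjusted p = 0.007) thus came from 129/svj. The calls against 129/svj held under every alternative run, each mouse left out included, at 1.13 to 1.27 for BALB/c and 1.0 to 1.13 for DBA1.

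RefSeq lists 4 transcription starts of Cd82 on the minus strand of chromosome 2 in GRCm38.p6. The window before the start farthest upstream, chr2:93462951-93463200, is shown because Cd82 had the lowest adjusted p of the CD antigens in this table, and it holds 1 GC box, in capitals. The next start has 1 GC box in its window, the third has 2 ETS cores, and the last has none of the 3 motifs. The sequence is that of the reference strain, and no sequence of 129/svj was read.
Cd82 upstream start: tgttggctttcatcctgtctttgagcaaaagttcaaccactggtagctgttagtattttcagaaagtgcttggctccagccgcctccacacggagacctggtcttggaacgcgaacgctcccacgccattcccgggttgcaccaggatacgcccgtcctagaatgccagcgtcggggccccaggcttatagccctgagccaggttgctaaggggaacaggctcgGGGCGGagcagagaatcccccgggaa

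Cd14, the coreceptor for bacterial lipopolysaccharide on monocytes, macrophages, and injured epithelium, was low in BALB/c. It was 7.11, 6.68, and 7.03 in BALB/c, 9.04, 9.77, and 10.37 in DBA1, and 7.63, 7.07, and 9.46 in 129/svj. All DBA1 mice were above all BALB/c mice (BALB/c minus DBA1 -2.79, SE 0.54, adjusted p = 0.014), 6.92-fold between the means. The mice of 129/svj were spread out, 1 of them overlapping BALB/c and mouse 3 reaching the DBA1 range (BALB/c minus 129/svj -1.11, SE 0.54, adjusted p = 0.38). Without mouse 3 of 129/svj, DBA1 was above 129/svj by 2.38 (adjusted p = 0.0047), where all mice gave 1.68 (SE 0.54, adjusted p = 0.15). The difference of BALB/c from the mean of the sensitive strains was -1.95 (SE 0.47, adjusted p = 0.037). It was not called without BALB/c mouse 1 (-2.04, adjusted p = 0.11), 2 (-1.82, adjusted p = 0.17), or 3 (-2.0, adjusted p = 0.11), DBA1 mouse 2 (-1.94, adjusted p = 0.074) or 3 (-1.79, adjusted p = 0.057), or 129/svj mouse 1 (-2.06, adjusted p = 0.056). That between BALB/c and DBA1 was not called without BALB/c mouse 2 (-2.66, adjusted p = 0.064).

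The macrophage genes outside the CD names that had a tested probe in this table were 3 of 5 measured, C1qa, C1qc, and Csf1r, and none was called in any of the 4 comparisons. Their mean was 6.71, 6.59, and 7.19 in BALB/c, 7.62, 7.68, and 8.01 in DBA1, and 7.14, 6.49, and 7.81 in 129/svj, so that DBA1 stood above BALB/c in every mouse as Cd14 did. The median difference of the 3, BALB/c minus DBA1, was -1.02, against 0.01 over all tested probes. S100a8, of neutrophils and activated monocytes, was 7.89, 7.19, and 8.43 in BALB/c and 7.38, 7.63, and 8.11 in DBA1, so these strains overlapped. In 129/svj it was 8.19 and 4.85 in mice 1 and 2 and higher still in mouse 3. The part of these cells in the Cd14 difference was not tested.

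Cd93 was lower in DBA1 by 1 of its 2 probes. The brighter was 9.02, 9.02, and 9.08 in BALB/c, 7.93, 8.06, and 8.36 in DBA1, and 8.94, 8.89, and 9.68 in 129/svj. Every DBA1 mouse was below every mouse of the other strains, by 0.93 against BALB/c (SE 0.21, adjusted p = 0.033) and by 1.06 against 129/svj (DBA1 minus 129/svj -1.06, SE 0.21, adjusted p = 0.019). The dimmer probe gave 0.26 (SE 0.22, adjusted p = 0.61) and -0.28 (SE 0.22, adjusted p = 0.7). The first difference was not called without BALB/c mouse 1 (0.94, adjusted p = 0.095), 2 (0.94, adjusted p = 0.11), or 3 (0.91, adjusted p = 0.098), or without DBA1 mouse 1 (0.83, adjusted p = 0.11) or 2 (0.90, adjusted p = 0.11). The other was lost without DBA1 mouse 1 (-0.96, adjusted p = 0.079) or 2 (-1.03, adjusted p = 0.073). The 4 tested endothelial probes outside the CD names had a mean of 8.90 to 9.09 in BALB/c, 8.39 to 8.97 in DBA1, and 8.42 to 9.0 in 129/svj, with none called.

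Cd68 varied more among mice of a strain than between strains, and Cd44 did so in 129/svj only (SD 1.61). For Cd44, BALB/c minus DBA1 was -0.98 (SE 0.66, adjusted p = 0.5). Cd68 was 7.30, 5.85, and 7.62 in BALB/c, 6.76, 7.78, and 7.53 in DBA1, and 6.80, 6.11, and 9.37 in 129/svj. Cd44 was 5.06, 4.75, and 5.65 in BALB/c, 5.62, 5.96, and 6.81 in DBA1, and 5.40, 4.79, and 7.82 in 129/svj, and it was detected in 4 of the 9 mice. Mouse 3 of 129/svj was the highest of all 9 for both, as it was within its strain for Cd14. Without it, DBA1 minus 129/svj for Cd68 went from -0.07 to 0.91 (adjusted p = 0.43), and neither gene was called in any comparison with or without it.

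The remaining tested probes of this table were not called. Cd63 was within 0.03 of 0 in all 4 comparisons (SE 0.12 to 0.14), and Cd151, read by 1 probe here, was lower in BALB/c than in each other strain by 0.13 (SE 0.14, adjusted p = 0.71 and 0.77). Cd164 (-0.13, SE 0.10, adjusted p = 0.57), Cd9 (-0.14, SE 0.15, adjusted p = 0.68), Cd80 (-0.04, SE 0.15, adjusted p = 0.92), Cd55 (0.12, SE 0.18, adjusted p = 0.8), Cd99l2 (0.05, SE 0.11, adjusted p = 0.88), Cd2 (-0.19, SE 0.13, adjusted p = 0.47), and Cd3d (-0.02, SE 0.14, adjusted p = 0.96) are given as BALB/c minus the mean of the sensitive strains. Cd200 had a probe that was higher in 129/svj, at 6.59, 6.03, and 6.23 against 5.41, 5.72, and 5.27 in DBA1, which did not pass (DBA1 minus 129/svj -0.81, SE 0.21, adjusted p = 0.061). This probe was detected in all 3 mice of 129/svj but in only 1 of DBA1 and 1 of BALB/c. The brighter Cd200 probe, detected in all 9 mice, went the other way (DBA1 minus 129/svj 0.46, SE 0.36, adjusted p = 0.7).

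Whether resistant and sensitive strains differed in the same way in the 2 tables was tested over all 15 mice for probes whose key was unique in both, 19 of which were CD antigen probes past the filter, for 18 genes. In this fit 3 of the 19 were called, Cd82, Cd14, and Cd52, beside 10.3% of all 6896 probes. Cd52 passed the filter only through the strain where it was high, so the 3 calls are not read as an excess over that share. Cd82 was 0.71 higher in BALB/c than in the mean of DBA1 and 129/svj and 0.09 higher in B6 than in NZW, so the differences stood 0.62 apart (SE 0.16, adjusted p = 0.024). Cd14 was -2.04 in the first comparison and 0.10 in the second, -2.15 apart (SE 0.65, adjusted p = 0.048). Cd52 was called as well. Its probe was detected in the 3 B6 mice alone of all 15 and passed the filter through them, so no size or adjusted p is given here. For Cd93, higher in B6 than in NZW, the differences were 0.43 and 1.02 in the brighter probe (-0.58 apart, SE 0.24, adjusted p = 0.16). Only 2 CD antigen probes, Cd82 and Cd14, were called in BALB/c minus the mean of the sensitive strains, and neither was called in B6 minus NZW. The share of all probes called in both was not counted, so nothing about CD antigens is read from this. Of the kidney cortex genes, all 12 had a tested probe in B6 and NZW, and 9 of 10 measured did in the other table. In B6 against NZW, 2 of their 23 probes were higher and 5 lower in B6, beside 9.24% and 9.6% of all tested probes.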

How the data were processed

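RNA of kidney cortex was measured on Illumina BeadChips. The authors deposited the scanner's signal intensity per probe and array without normalization, with a detection p-value, in 2 tables with different strains; both deposited columns were used. The array methods and the genome build are not given in the sources used here. Only the table of B6 and NZW names genes, by symbols that can be old. The genes, their groups and the lists of other cell types were chosen with earlier results of these data known.

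Each table was processed apart with limma 3.58.1 in R 4.3.3: normexp correction from the detection p-values (offset 16), quantile normalization, log2, and the mean of repeat arrays of a mouse (detection p averaged too). Probes whose detection p was at most 0.05 in 3 or more mice of the table were fitted with lmFit and eBayes, 1 coefficient per strain, with Benjamini-Hochberg adjustment over all tested probes and an adjusted p below 0.05. The difference between the tables was fitted on both, quantile normalized together over 19886 probe pairs with a key unique in both. Mice are the replicates. Array numbers limit the precision, and quantile normalization hides any shift shared by most probes.

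Named genes were lineage markers (Cd3d, Cd3e, Cd3g, Cd4, Cd8a, Cd79a, Cd79b, Cd14, Cd68, and Cd163), each CD antigen probe called (up to 12 per comparison of resistant with sensitive strains and 5 per other pair), those whose probes disagree, and the 10 brightest; others are named within their groups. A further lineage marker of that rule is not reported here. Lists of 8 other cell or tissue types were read for content, with blood and tubule injury genes. In B6 against NZW the blood list had 3 probes higher and 1 lower of 14, and the tubule injury list 3 higher and 3 lower of 7. Of all tested probes, 9.24% were higher and 9.6% lower. The fit was tested on simulated data first. Alternatives covered background correction, scaling, filter, repeat arrays, joint normalization, replicate number, variance model, the methods' t-test, and each mouse left out. Sequences are from RefSeq (GRCm38.p6), where 54 of the 78 genes have a promoter entry.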

Additional observations from a re-analysis of the deposited data

Results flagged for a closer look

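Chosen because the difference between resistant and sensitive strains itself differed between the 2 tables, 3 of 19 tested CD antigens are given here. Cd82 had a value of 0.62 (BALB/c against DBA1 and 129/svj, minus B6 against NZW), carried by its low level in 129/svj. Without 1 of B6 mouse 2 or 3, NZW mouse 1 or 3, or BALB/c mouse 1 or 2 it was 0.56 to 0.61 and no longer passed. Cd14 had a value of -2.15, carried by its low level in BALB/c and high level in DBA1, and it passed the threshold by little: its adjusted p was 0.056 without background correction and 0.069 with 75th percentile scaling, and 11 of the 15 mice ended the call when left out. Cd52 had a fitted value of -0.94, from a probe that was detected in the 3 B6 mice and in no other strain. It passed the filter through B6 alone, and its size depends on the background correction (-0.52 with a normexp offset of 50), so it is not a measured size. The tables were deposited apart and hold different strains, so an effect of the table on a probe that depends on strain cannot be told apart from these differences.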

How the results depend on the processing

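Of 22 differences called for single probes, none changed direction in 401 values under the alternatives, 84 no longer passed the threshold, and 6 differences were called under every alternative run. These 6 were Cd93 (ILMN_1226329), Cd151 (ILMN_2492403), and Cd200 (ILMN_3160769) in B6 against NZW, Cd82 in BALB/c and in DBA1 against 129/svj, and Cd52 in the difference between the tables, whose probe was detected in B6 alone. The counts of CD antigen probes called changed as follows. With the methods' t-test and Benjamini-Hochberg adjustment, 6 were called in B6 against NZW, 0 in BALB/c against the mean of DBA1 and 129/svj, 0 in BALB/c against DBA1, and 1 in DBA1 against 129/svj. For both counts of 0, limma called 2, and 2 and 3 probes had an unadjusted p below 0.05 in that t-test. Against the mean of DBA1 and 129/svj, only 1 of the 2 was shared with limma. Cd164 was added and Cd82 was lost (unadjusted p = 0.11 in the t-test). There the t-test pooled the mice of DBA1 and 129/svj into 1 group, which the limma comparison did not. At an unadjusted p below 0.05 the same test called 3 in BALB/c against 129/svj and 4 in DBA1 against 129/svj. Without the filter, 1 was called in BALB/c against the mean of the others and 1 in BALB/c against DBA1. With both tables normalized together, where only 19 CD antigen probes remain, 2 were called in B6 against NZW. Leaving out 1 mouse gave 9 to 10 in B6 against NZW, 1 to 2 in BALB/c against the mean of the others, 0 to 2 in BALB/c against DBA1, 1 to 1 in BALB/c against 129/svj, 1 to 3 in DBA1 against 129/svj, and 1 to 3 in the difference between the tables. Over all tested probes, the calls in B6 against NZW ranged from 678 (joint normalization) to 4772 (t-test, unadjusted) around 3159, and in BALB/c against the mean of the others from 294 to 2187 around 948. Counting keys shared by several probes, 67 CD antigen probes matched between the tables instead of 34. At a detection p of 0.01, an alternative chosen after seeing the data, 28 genes were detected in B6 and NZW and 14 matched probes in the other table. The replicate numbers did not pair the mice: deviations of same-numbered mice of 2 strains correlated from -0.26 to 0.39, over 0.1 in 3 of 12 pairs. With the replicate number as a block, 10 probes were called in B6 against NZW, 8 of them shared, with Cd37 and Cd44 added, 2 in BALB/c against the mean of the others, 2 in BALB/c against DBA1, 1 in BALB/c against 129/svj, 2 in DBA1 against 129/svj, and 2 in the difference between the tables. Without Fcer1g, a choice made after seeing the data, the median of the macrophage genes was 0.42 instead of 0.43. Cd4, Cd8a, and Cd163, whose signals were not above background, were not detectable rather than shown to be absent.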
